A study of Mus musculus with 8 samples.

Results

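The growth factor receptor genes Pdgfra, Pdgfrb, Fgfr1, Fgfr2, Fgfr3, Igf1r, Insr and Ntrk2, the receptor-type phosphatase gene Ptprz1 and the proteoglycan gene Cspg4 were examined for H3K27ac, the acetylated form of histone H3 at lysine 27 that marks active promoters and enhancers. These 10 of 21951 protein-coding genes were chosen by name, for their place in oligodendrocyte precursor cells (OPCs), and not by a measured value. Earlier results of these data were known at the time of the choice. Every H3K27ac peak over the gene body or within 20 kb of it was taken from the peak lists of proliferating and differentiating Oli-neu cells. The annotated gene records, with the 20 kb on each side, held 56 of the 28924 peaks of the proliferating list and 60 of the 27965 peaks of the differentiating list. Of these, 30 and 34 lay in a single stretch that 1 unusually long transcript, Fgfr2-217, adds to the record of Fgfr2. With the start of that transcript set aside, the start nearest to each of them belonged to another gene. Without that transcript 26 peaks remained in each list, over 8 of the 10 genes, and these peaks are described here. Of all protein-coding genes, 62.7% had a peak in the gene or within 20 kb in each list, 72.4% in either and 53.1% in both.

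Oli-neu is a mouse cell line derived from embryonic OPCs and immortalized with an activated neu (ErbB2) oncogene, and the labels give its strain as C57BL/6. Proliferating cells were grown in N2-supplemented medium with 10 ng/ml bFGF, 1 ng/ml Pdgf-BB, 340 ng/ml T3 and 400 ng/ml L-thyroxine. For differentiation the growth factors were left out and the erb inhibitor PD174265 was added at 1 µM, for 1 day according to the labels, although the culture methods of the study give a longer time. Each state gave 1 library of chromatin immunoprecipitation followed by sequencing (ChIP-seq), so values of the states are set side by side and no test between them was possible. The bulk signal cannot tell apart a mark carried by few cells and a weak mark in many. Libraries of chromatin accessibility (ATAC-seq) from siRNA-treated cells, 6 in number, were not analysed here.

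Pdgfra encodes the receptor for PDGF-AA that drives the division and survival of OPCs, and it is silenced as the cells mature. Cspg4, known as NG2, is the surface proteoglycan by which these cells are recognized, and pericytes carry it together with Pdgfrb. FGF receptors act through the adaptor Frs2 and MAP kinase signalling, Igf1r and Insr through the Irs proteins, Ntrk2 (TrkB) is the receptor of BDNF, and Ptprz1 is held inactive by its ligand pleiotrophin. Receptor genes of this kind are long, often start from several promoters, and are commonly controlled by enhancers within their introns or beyond their ends.

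The identity of the cells was checked against marker genes, counting a gene as marked when a peak touched its promoter region, the 3000 bp before and the 100 bp after its transcription start site (TSS). Of all protein-coding genes, 23.7% were marked in proliferating cells, 27.7% in differentiating cells, 33.8% in either and 17.6% in both. Of 10 oligodendrocyte lineage markers, 5 were marked in proliferating cells and 6 in differentiating cells, with Olig1, Olig2, Sox10, Gpr17 and Ugt8a in both, while the myelin genes Cnp and Mbp and the transcription factor gene Nkx2-2 were among those marked in neither. Cnp had a peak at the promoter of another annotated start in both lists, whereas Mbp and Nkx2-2 had none by that count either. Neuron markers were marked for 1 of 7 genes in each list, astrocyte markers for 1 and 0 of 6, pericyte and fibroblast markers for 1 and 0 of 8, microglia markers for 0 of 6 and endothelial markers for 0 of 5. The astrocyte list shares Fgfr3 and the pericyte list shares Pdgfrb with the genes studied.

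Each peak carries a fold enrichment over background and a −log10 q, both from the authors' peak calling. Its percentile is the share of peaks of its own list that rank below it in −log10 q, with tied peaks placed at the middle of their ranks. Distances run from a TSS to the nearest edge of a peak and are negative upstream. A peak is called shared when any of its bases lies under a peak of the other list. The map of peaks around each gene shows where they fell, with a separate scale for each gene. Pdgfra, Cspg4 and Fgfr3 were crowded with peaks, Igf1r, Ptprz1 and Ntrk2 had a peak near the start and others far inside or beyond the gene, and Pdgfrb and Fgfr2 had none.

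**Figure D1:**
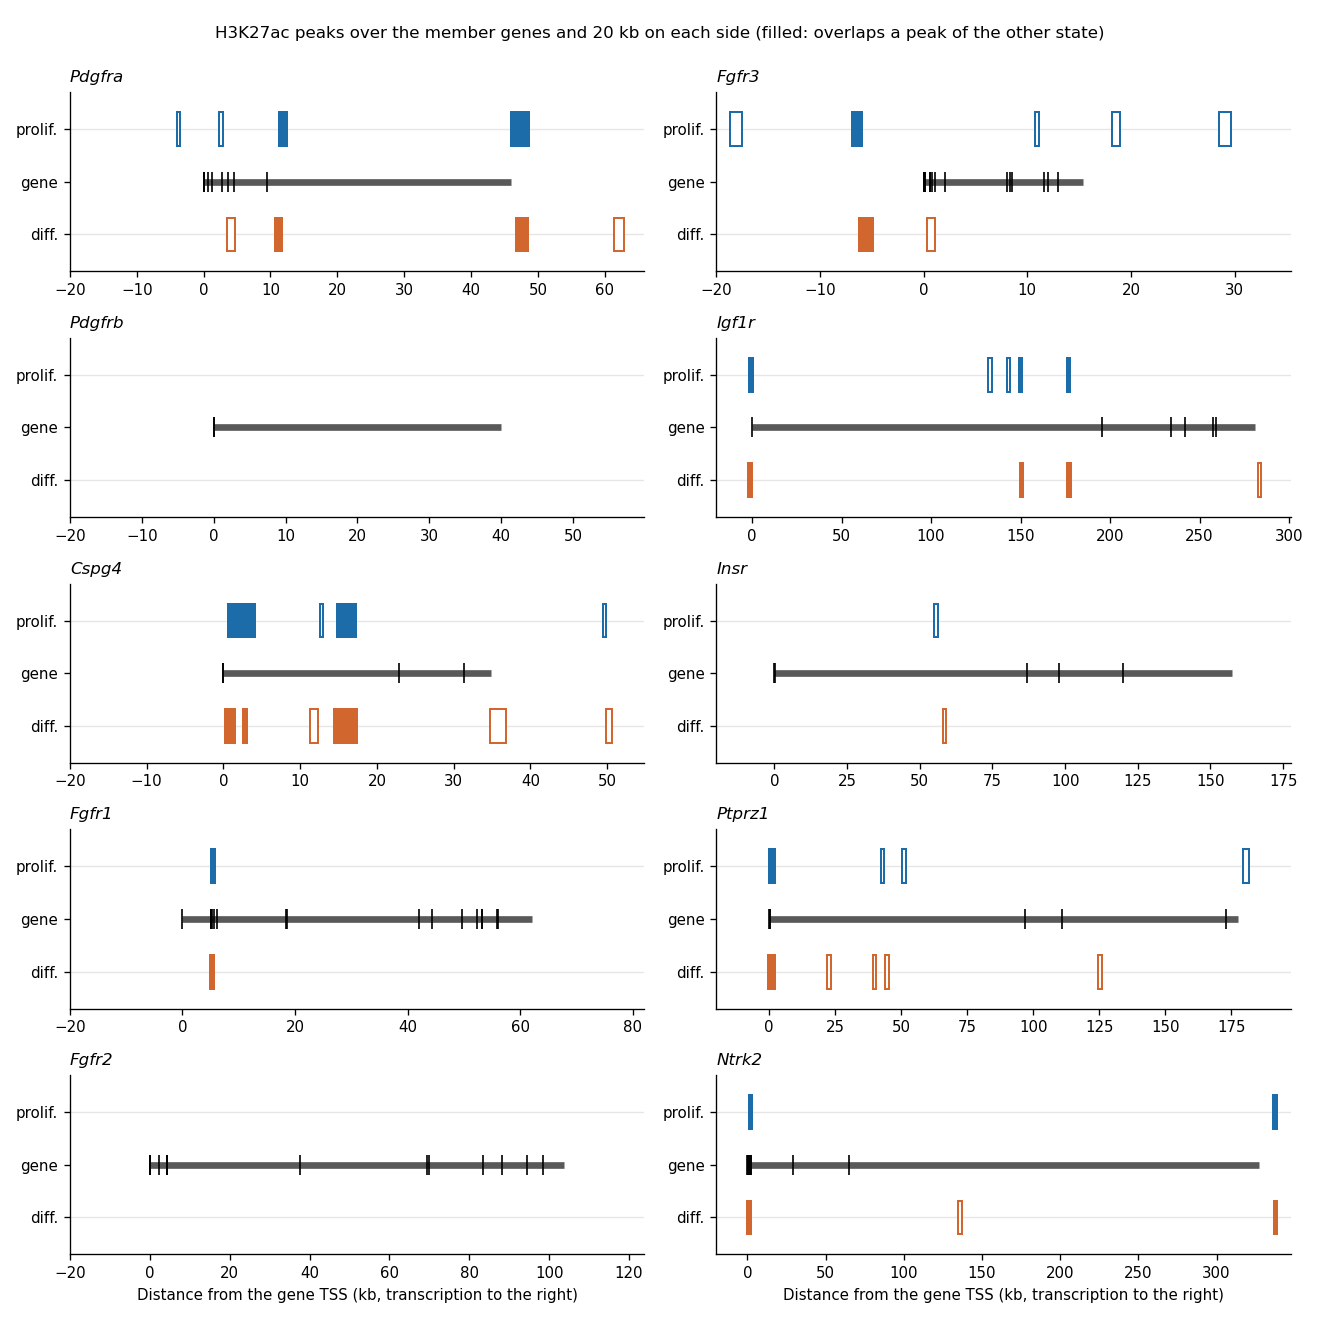
H3K27ac peaks of the proliferating (blue) and differentiating (orange) libraries around the 10 genes, with distance from the gene TSS in kb on the x axis, the gene body as a grey bar, transcript starts as black ticks, and shared peaks filled. Peaks are drawn at their width or, where that would be invisible, at a fixed minimum width; Pdgfrb and Fgfr2, drawn without transcript Fgfr2-217, have no peak, and Fgfr1 and Insr have 1 in each state.

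Pdgfra (chr5:75152292-75198215, plus strand) carried 4 peaks in each state, and its annotated start was free of peaks in both. In proliferating cells the nearest upstream peak was 263 bp wide and lay at -3596 bp, at the 50.4th percentile, and a peak of 335 bp in an intron ended at -22 bp from an internal transcript start, at the 43.8th percentile. In differentiating cells neither was listed. A peak of 1255 bp instead covered 2 internal starts, at positions 75155899 and 75156833, at the 57.8th percentile and 729 bp from the nearest proliferating peak. The 5′ part of the gene was thus listed in both states, over neighbouring and not overlapping stretches.

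Further inside Pdgfra, a peak over coding exons was shared. It began 11230 bp from the TSS in proliferating cells, with a fold enrichment of 3.25 at the 45.3rd percentile, and 10721 bp from it in differentiating cells, with a fold enrichment of 3.49 at the 82.1st percentile. The other shared element lay just past the 3′ end of the gene. It was 2704 bp wide and 25 bp from the gene end in proliferating cells, wider than 99.4% of its list and at the 71.7th percentile of −log10 q. In differentiating cells it was 1787 bp wide, 857 bp from the gene end and at the 57.8th percentile. The whole differentiating peak lay within the proliferating one, so this end of the locus was listed in both states. A 4th peak of the differentiating list, unshared, lay 15534 bp past the gene end at the 42.0th percentile.

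The middle of the shared element past the 3′ end of Pdgfra (GRCm38, chr5:75199815-75200114, plus strand) had 45.0% GC and 2 CpG dinucleotides. It is shown as the stretch with the highest mean percentile that both states shared and that lay nearest to Pdgfra. Capitals mark the only hit among the letters searched on both strands, CAGCTG (an E-box), ACAAAG and ACAATG (SOX-type), TGACTCA (AP-1) and GGGCGG (a GC box). Here it is ACAATG on the minus strand.
Pdgfra 3′ element: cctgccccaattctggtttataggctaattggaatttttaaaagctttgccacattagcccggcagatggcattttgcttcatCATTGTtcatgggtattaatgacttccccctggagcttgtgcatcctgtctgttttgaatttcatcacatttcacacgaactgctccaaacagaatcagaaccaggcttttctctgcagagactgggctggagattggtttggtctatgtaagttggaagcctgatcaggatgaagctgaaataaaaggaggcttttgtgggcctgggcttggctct

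Pdgfrb (chr18:61045150-61085061, plus strand), the PDGF receptor of pericytes and fibroblasts that binds the Pdgf-BB of the growth medium, had 0 peaks in either list within 20 kb. The nearest peak lay at -52092 bp in proliferating cells, at the 90.8th percentile, and at -51336 bp in differentiating cells, at the 64.9th. The gene and its flanks were thus without a listed peak in both states.

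Cspg4 (chr9:56865033-56899870, plus strand) was among the most densely covered genes of both lists, with 4 peaks in proliferating and 6 in differentiating cells. Per Mb of gene and flank this was 53.4 and 80.2 peaks, above 90.8% and 97.7% of all protein-coding genes, against 8.92 and 8.51 for the whole of chromosome 9. The TSS itself lay outside every peak. In proliferating cells a single peak of 3584 bp, wider than 99.9% of its list, lay in an intron from 540 bp onward, with a fold enrichment of 2.73 at the 79.0th percentile. In differentiating cells the same stretch was listed as a peak of 1278 bp from 226 bp onward, over coding sequence, and a peak of 389 bp from 2624 bp onward. The latter was the strongest member peak of the differentiating list by −log10 q, with 5.18 at the 94.8th percentile, although its fold enrichment of 2.88 exceeded only 19.1% of the list.

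A second wide element of Cspg4 lay in an intron, 14773 bp from the TSS and 2488 bp wide in proliferating cells, and 14363 bp from it and 3081 bp wide in differentiating cells. It stood at the 78.0th percentile in the former and the 83.6th in the latter, and the whole proliferating peak lay under the differentiating one. Next to it an unshared pair lay 272 bp apart, at the 17.1st percentile in proliferating cells and the 48.3rd in differentiating cells. At the 3′ end a peak of 1982 bp, over the end of the gene, was listed in differentiating cells alone, at the 22.6th percentile. A second unshared pair, 45 bp apart and beyond the 3′ end, lay nearest to the start of the neighbouring gene Snx33, at the 45.5th and 40.2nd percentiles. The fold enrichments over this gene were low, from 2.09 to 3.28 in proliferating and from 2.101 to 3.06 in differentiating cells, and the gene stood out by width and density.

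The centre of the shared part of the intron peak of Cspg4 (GRCm38, chr9:56867701-56868000, plus strand), with 56.0% GC and 2 CpG dinucleotides, held 1 of the letters searched, the E-box CAGCTG, in capitals. It is shown because it had the highest mean percentile of the shared regions of this gene.
Cspg4 intron element: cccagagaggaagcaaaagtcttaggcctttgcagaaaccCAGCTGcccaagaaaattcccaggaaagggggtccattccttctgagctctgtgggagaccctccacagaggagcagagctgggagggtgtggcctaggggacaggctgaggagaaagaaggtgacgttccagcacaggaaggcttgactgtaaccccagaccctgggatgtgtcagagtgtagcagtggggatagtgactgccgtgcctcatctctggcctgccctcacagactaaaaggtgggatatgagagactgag

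Of the FGF receptors, Fgfr1 was marked over internal starts in both states, Fgfr3 over internal starts in differentiating cells, and Fgfr2 in neither. Fgfr1 (chr8:25513654-25575718, plus strand) had 1 peak in each state, and they were shared. The 703 bp peak of proliferating cells lay over 6 internal starts of 7 transcripts and the 342 bp peak of differentiating cells over 5 starts of 6, at the place where RefSeq begins the gene (position 25518759). Fold enrichment was 4.02 at the 82.1st percentile and 3.93 at the 84.0th, with 73.4% and 71.9% GC. The outermost GENCODE start, 5070 bp and 5093 bp away, was unmarked. The peak thus marked the RefSeq start, where other GENCODE transcripts also begin, and not the start of the gene record.

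Fgfr3 (chr5:33721674-33737068, plus strand), the FGF receptor also used as an astrocyte marker, is the shortest of the genes and had 5 peaks in proliferating and 2 in differentiating cells. Its density of 90.3 peaks per Mb was the highest of the 10 genes in proliferating cells, above 98.7% of all protein-coding genes, and 36.1 in differentiating cells, above 78.2%. The shared peak lay upstream, at -5900 bp and the 31.2nd percentile in proliferating cells and at -4858 bp and the 46.0th percentile in differentiating cells. In differentiating cells the second peak, 735 bp wide at the 55.3rd percentile, covered the starts at positions 33722306 and 33722444, the former a RefSeq start. No proliferating peak covered any start of Fgfr3. The remaining 4 of proliferating cells included a peak at -17545 bp and an exonic one of 375 bp at the 50.1st percentile. The others lay over the neighbouring gene Letm1. One was 2817 bp past the end of Fgfr3 at the 57.7th percentile, and one, nearest to the start of Letm1, was at the 4.67th. None of the Fgfr3 peaks stood above the 57.7th percentile. In proliferating cells this gene was thus high in the number of its peaks, some of them over Letm1, and not in their strength.

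Fgfr2 (chr7:130162451-133123350, minus strand, as annotated) is the gene whose record runs 2.96 Mb because transcript Fgfr2-217 begins at the Ctbp2 start, 2.86 Mb from the next start. RefSeq starts the gene at position 130266808. Over the shorter record, of 104 kb, and its flanks there were 0 peaks in either list, and the nearest lay at -96392 bp and -96598 bp from the TSS, at the 88.7th and 80.0th percentiles.

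Igf1r (chr7:67952827-68233668, plus strand), the receptor of insulin-like growth factors, was marked at its promoter in both lists. In proliferating cells the peak was 338 bp wide, at -419 bp, with a fold enrichment of 3.43 at the 49.99th percentile. In differentiating cells it was 1117 bp wide, at -530 bp, with a fold enrichment of 4.16 at the 89.2nd percentile. Both peaks covered the RefSeq start at position 67952257. Inside the gene, 4 intronic peaks of the proliferating list lay between 132357 and 176667 bp from the TSS. The strongest of them, of 1114 bp with a fold enrichment of 4.04 at the 91.5th percentile, and a peak of 275 bp at the 86.2nd percentile were unshared. The other two were shared, at the 76.0th and 65.6th percentiles in proliferating cells and at the 7.54th and 59.6th in differentiating cells. A peak of 279 bp past the gene end was listed in differentiating cells alone, at the 7.54th percentile, and like the weaker shared peak of that list it had a −log10 q of 1.28, short of the 1.30 that a q of 0.05 gives. The promoter thus ranked higher within its list in differentiating cells, and the first shared intronic peak ranked higher in proliferating cells, in 1 library each.

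A part of the stretch shared by both Igf1r promoter peaks, the 177 bp before the RefSeq start (GRCm38, chr7:67952080-67952256, plus strand), had 79.1% GC and 30 CpG dinucleotides. It is shown as promoter sequence under a peak in both states, and capitals mark the GC box GGGCGG, which occurs 2 times.
Igf1r promoter: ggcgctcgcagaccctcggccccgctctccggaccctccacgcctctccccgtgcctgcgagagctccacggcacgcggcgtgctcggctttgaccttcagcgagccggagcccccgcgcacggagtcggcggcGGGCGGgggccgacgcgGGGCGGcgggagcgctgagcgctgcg

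Insr (chr8:3122061-3279617, minus strand), the insulin receptor and the close relative of Igf1r, had 1 intronic peak in each state and no marked start. The proliferating peak was 263 bp wide, 55499 bp from the TSS and at the 59.6th percentile, and the differentiating peak was 719 bp wide, 58062 bp from it and at the 21.5th percentile. They lay 2301 bp apart and did not overlap. The promoter region was thus marked at Igf1r and not at Insr, in both lists.

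Ptprz1 (chr6:22875502-23052916, plus strand) carried the strongest promoter peak of the 10 genes by −log10 q in both lists, although in differentiating cells the fold enrichment was higher at the Igf1r promoter. In proliferating cells it was 2083 bp wide, with a fold enrichment of 4.45 and a −log10 q of 6.54 at the 97.8th percentile, and it began 7 bp downstream of the TSS and covered 2 further starts. In differentiating cells it was 2527 bp wide, with a fold enrichment of 3.50 and a −log10 q of 4.23 at the 91.3rd percentile, and it covered the TSS and 3 starts in all. They shared 2076 bp, nearly the whole of the proliferating peak, and differed in the bases before the start. The remaining 3 peaks of the proliferating list, at the 14.9th, 69.2nd and 50.8th percentiles, and the remaining 4 of the differentiating list, each 279 bp wide and at the 11.7th to 54.3rd percentiles, were unshared. Among the former was a peak of 2203 bp, 2115 bp past the gene end, wider than 98.3% of its list.

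The bases before the Ptprz1 start are given from the RefSeq promoter table (GRCm38, chr6:22875252-22875501, plus strand) because all 250 lay under the differentiating peak and 0 under the proliferating one. They had 71.6% GC and 22 CpG dinucleotides, and capitals mark GGGCGG on either strand. The middle of the shared part (GRCm38, chr6:22876397-22876696, plus strand), with 41.3% GC and 5 CpG dinucleotides, held none of the letters searched.
Ptprz1 upstream: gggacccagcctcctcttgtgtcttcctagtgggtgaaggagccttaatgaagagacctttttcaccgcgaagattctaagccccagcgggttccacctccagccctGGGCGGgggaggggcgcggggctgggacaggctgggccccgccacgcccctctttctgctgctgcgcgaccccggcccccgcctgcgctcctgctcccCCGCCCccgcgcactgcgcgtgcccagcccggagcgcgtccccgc
Ptprz1 shared middle: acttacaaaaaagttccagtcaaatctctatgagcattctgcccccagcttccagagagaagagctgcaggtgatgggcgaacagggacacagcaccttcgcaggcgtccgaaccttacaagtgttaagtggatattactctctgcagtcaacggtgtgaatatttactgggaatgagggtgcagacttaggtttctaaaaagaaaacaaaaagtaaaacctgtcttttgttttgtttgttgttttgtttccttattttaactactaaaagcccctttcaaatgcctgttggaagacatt

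Ntrk2 (chr13:58806569-59133970, plus strand) had 2 peaks in proliferating and 3 in differentiating cells, at internal starts and far past its 3′ end. The first lay 1386 bp from the gene TSS in proliferating cells, over 2 internal starts, with a fold enrichment of 3.34 at the 39.6th percentile. In differentiating cells it lay 442 bp from the TSS, over 3 starts, with a fold enrichment of 3.50 at the 76.8th percentile. The second shared peak lay past the 3′ end of the gene, 9052 bp and 9664 bp from it, over the annotated gene Gm34307, at the 51.3rd and 87.7th percentiles. Both shared peaks of Ntrk2 thus ranked higher in the differentiating list. A peak of 279 bp in an intron, at the 76.5th percentile, was listed in differentiating cells alone.

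The shared middle of the Ntrk2 downstream element (GRCm38, chr13:59144023-59144322, plus strand) had 43.3% GC and 5 CpG dinucleotides. It is shown as the shared stretch of highest mean percentile near this gene, and capitals mark ACAATG.
Ntrk2 3′ element: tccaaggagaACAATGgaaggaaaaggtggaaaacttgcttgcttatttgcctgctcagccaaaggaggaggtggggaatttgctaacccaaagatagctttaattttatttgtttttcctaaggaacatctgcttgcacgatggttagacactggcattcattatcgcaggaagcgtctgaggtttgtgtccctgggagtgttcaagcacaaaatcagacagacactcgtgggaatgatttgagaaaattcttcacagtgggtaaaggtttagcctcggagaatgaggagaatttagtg

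Across the 8 genes with a peak in their window the strength of single peaks covered nearly the whole range of their lists. The plot of percentiles shows members spread from the 4.67th to the 97.8th percentile in proliferating cells, with a median of 51.1, and from the 7.54th to the 94.8th in differentiating cells, with a median of 56.6. A −log10 q of 5 was reached by 1 of 26 peaks in each list, at Ptprz1 in proliferating and at Cspg4 in differentiating cells, beside 1257 of 28924 and 1601 of 27965 peaks of the lists. Median fold enrichment was 3.28 and 3.08, beside 3.33 and 3.13 over all peaks of the lists, so the member peaks as a group were of ordinary strength.

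**Figure D2:**
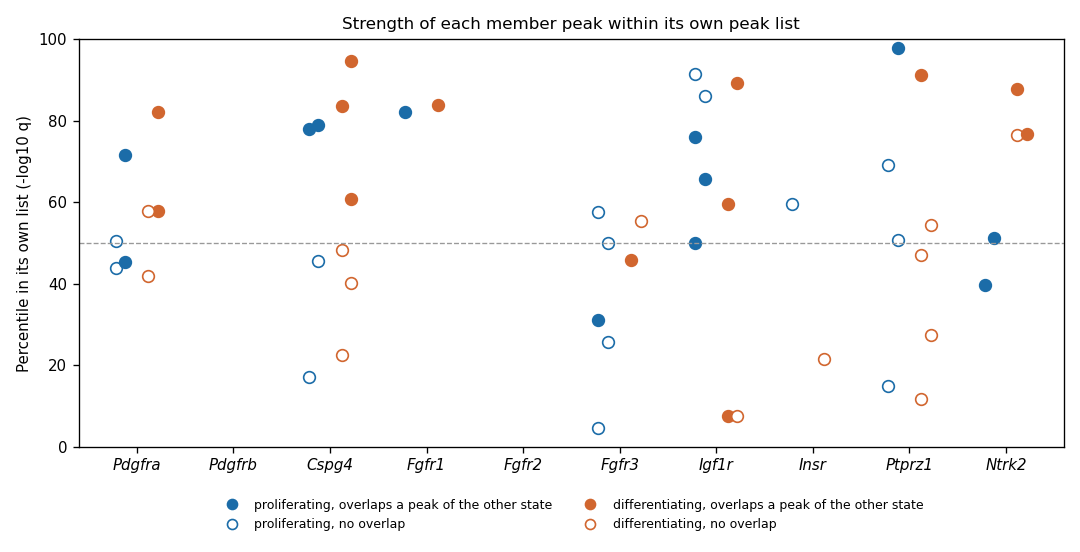
Percentile by −log10 q of each member peak within its own list (y axis) for each gene (x axis), in proliferating (blue) and differentiating (orange) cells, with filled points for shared peaks and a dashed line at the middle of the list. The highest points are Ptprz1 in proliferating cells, at 97.8, and Cspg4 in differentiating cells, at 94.8; Pdgfrb and Fgfr2 have no peak.

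Of the member peaks, 12 of 26 (46.2%, exact 95% interval 26.6 to 66.6) were shared in proliferating cells and 13 of 26 (50%, 29.9 to 70.1) in differentiating cells. The share over all peaks was 29.2% and 30.1%, which both intervals include. The intervals cover counting error only. The counts differ because 1 Cspg4 peak of the proliferating list met 2 of the differentiating list. Pdgfra, Cspg4, Fgfr1, Fgfr3, Igf1r, Ptprz1 and Ntrk2 each held at least 1 shared peak, whereas Insr had none. By place, the proliferating peaks were 5 over exons, 11 in introns, 4 upstream and 6 downstream, and the differentiating peaks 9, 10, 2 and 5. Among the starts of all transcripts of protein-coding genes, coding or not, the nearest was the member's own for 24 and 25 of the 26 peaks. The exceptions lay nearest to Letm1 or Snx33. With the annotated Fgfr2 record the counts were 25 and 26, and 23 and 22 when genes of every biotype were used.

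Peaks of the smallest width that each list holds, 263 bp in the proliferating and 279 bp in the differentiating list, were 3 and 6 of the 26, or 11.5% and 23.1%, beside 22.9% and 17.5% of the lists. At the other end, 5 of 26 (19.2%) and 2 of 26 (7.69%) were at least 2000 bp wide, beside 2.74% and 3.45% of all peaks. The 5 were 2 of Cspg4, 2 of Ptprz1 and 1 of Pdgfra, and the 2 were of Cspg4 and Ptprz1, so wide peaks were found at these 3 genes. Median GC content was 49.5% and 51.6% beside 47.1% and 47.4%, and CpG dinucleotides were 1.39 per 100 bp in each, beside 1.13 per 100 bp. The share of repeats was 12.8% and 12.2%, beside 13.0% and 12.9%.

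In the central 300 bp the E-box CAGCTG occurred in 5 of 26 proliferating and 9 of 26 differentiating peaks, or 19.2% and 34.6%, beside 15.5% and 15.9% of all peaks. For the GC box GGGCGG the shares were 15.4% and 19.2% beside 14.8% and 17.4%. ACAAAG occurred in 23.1% and 15.4% beside 23.1% and 23.1%, ACAATG in 11.5% and 3.85% beside 14.9% and 14.5%, and TGACTCA in 3.85% in each beside 4.79% and 4.70%. Among promoters of RefSeq of equal length, CAGCTG was in 13.0% and GGGCGG in 32.7%. These are matches of letters over 26 peaks each and were not tested.

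The genes were compared with all protein-coding genes by promoter and by window. At the gene TSS the promoter region of Igf1r and Ptprz1 was marked in both lists, 2 of 10 genes, and Fgfr2 made a 3rd only through the Ctbp2 start of its long transcript. When every annotated start was counted, Pdgfra, Fgfr1, Fgfr3 and Ntrk2 were marked as well, 6 of 10 in both lists, beside 31.3% and 35.3% of all genes (42.1% in either list and 24.5% in both). The 10 genes have up to 18 starts each, and every start adds a region to those searched. At least 1 peak in the gene or within 20 kb was found for 8 of 10 in both lists, beside 62.7% of all genes in each list and 53.1% in both. Windows of the genes were longer, with a median of 123 kb against 57.4 kb.

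Per Mb the median over the 10 genes was 12.7 peaks in proliferating and 11.1 in differentiating cells, beside 14.9 and 15.1 over all genes. Above the median of all genes stood 5 of the genes in proliferating and 4 in differentiating cells. The plot of density shows that each of the 8 genes with a peak lay above the density of its whole chromosome in both states. These genes are those with a peak, and a chromosome also holds stretches outside gene windows. Lying above it was therefore nearly fixed beforehand. Pdgfra had 46.6 peaks per Mb in each state against 15.1 and 13.8 for chromosome 5, which was above 78.8% and 80.5% of the genes of that chromosome. Igf1r had 15.6 and 12.5 against 6.11 and 5.94 for chromosome 7, and Ptprz1 18.4 and 23.0 against 12.1 and 11.5 for chromosome 6. Fgfr1 had 9.80 in each state and Insr 5.06 in each, against 4.87 and 4.85 for chromosome 8, and Ntrk2 had 5.44 and 8.17 against 4.16 and 4.26 for chromosome 13. By this density Insr stood above 49.2% and 46.4% of the genes of its chromosome, and Fgfr1 above 53.8% and 50.5%. Ptprz1 stood above 53.1% and 63.1%, Ntrk2 above 61.3% and 60.7%, and Igf1r above 67.0% and 61.5%. For Cspg4 the shares were 95.2% and 98.5%, and for Fgfr3 95.5% and 71.4%. Over all windows of the 10 genes, 1.65 Mb in total, the density was 15.8 per Mb in each list (exact 95% Poisson interval 10.3 to 23.2), beside 10.6 and 10.3 over the genome. The genome values also cover stretches outside gene windows, so they are no measure of other genes.

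**Figure D3:**
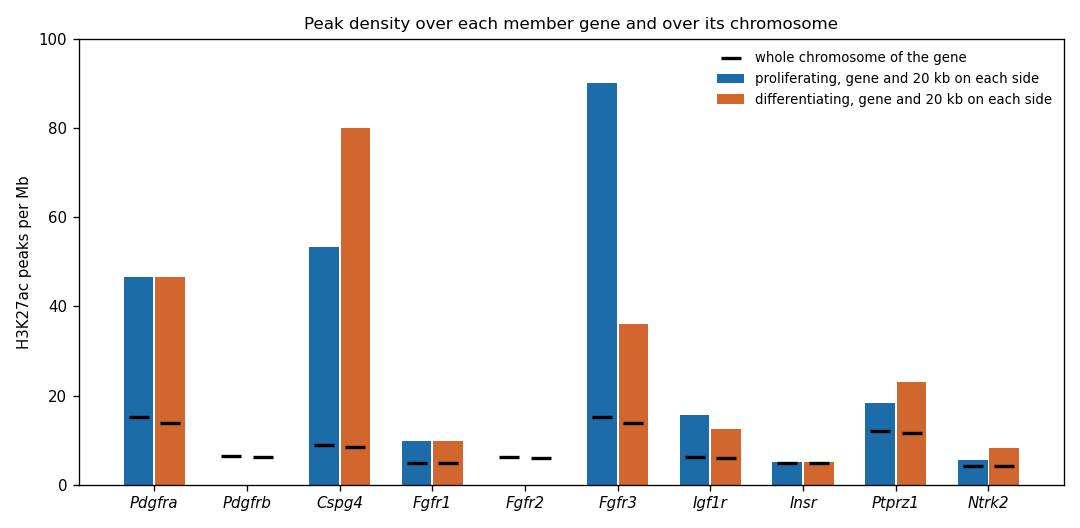
Peaks per Mb over each gene with 20 kb on each side (bars, blue for proliferating and orange for differentiating cells) and over the whole chromosome of the gene (black marks), with genes on the x axis and Fgfr2 without its long transcript. The 8 genes with a peak stand above their chromosomes in both states, Insr by the least, and Pdgfrb and Fgfr2 are at 0. The chromosome value also covers stretches outside gene windows.

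The other genes of the same pathways, 54 in all, were counted by role. Of these, 21 were marked at the promoter in proliferating cells and 20 in differentiating cells, 15 in both. Of all protein-coding genes, 23.7% and 27.7% were marked, and 17.6% in both. Receptors outside the 10 genes were marked for 0 of 11 and 1 of 11 (9.09%), the latter Sort1. Ligands were marked for 2 of 15 (13.3%) and 1 of 15 (6.67%). Pleiotrophin (Ptn), the ligand of Ptprz1, was marked in both lists, at the 75.6th and 42.2nd percentiles, and Pdgfb in proliferating cells alone. Adaptors that couple the receptors to signalling were marked for 8 and 10 of 14 genes (57.1% and 71.4%). Feedback inhibitors and target genes were marked for 11 and 8 of 14 (78.6% and 57.1%). These are counts of genes in 1 library each, and the difference between the roles was not tested.

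Of each of these 2 roles, the 4 genes marked in both lists with the highest mean percentile are named, so high ranks follow from the choice. Others marked in both lists reached down to a mean percentile of 46.0 among adaptors and 62.9 among feedback genes. Among the adaptors, Plcg1, the phospholipase that binds activated receptors, had the highest mean percentile over both lists, at the 96.6th in proliferating and the 96.1st in differentiating cells. Irs1, the docking protein of Igf1r and Insr, stood at the 78.6th and 97.9th, Grb2, which couples receptors to Ras, at the 85.6th and 83.1st, and Frs3, a docking protein of FGF receptors, at the 79.1st and 88.2nd. Of the feedback genes, Spry1, an inhibitor of receptor signalling, stood at the 98.5th and 92.0th percentiles and Dusp6, the phosphatase of ERK, at the 91.5th and 96.7th. Spred1, another inhibitor of Ras signalling, stood at the 83.5th and 92.3rd, and the transcription factor gene Etv1 at the 87.8th and 85.3rd.

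**Figure D4:**
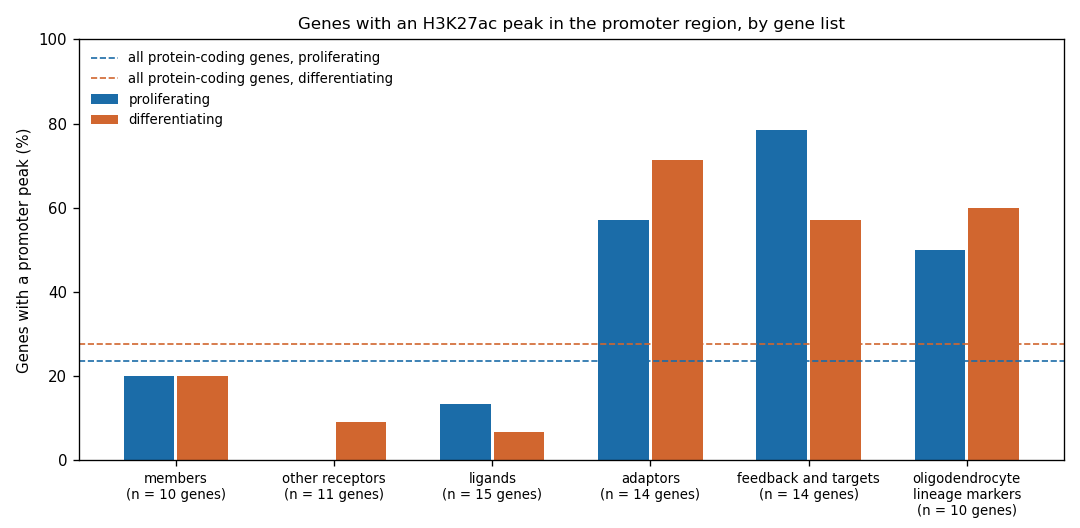
Percent of genes with a promoter peak (y axis) in proliferating (blue) and differentiating (orange) cells for the 10 genes, other pathway genes by role and the oligodendrocyte lineage markers, with dashed lines for all protein-coding genes at 23.7% and 27.7%. Adaptors and feedback genes lie above the lines, and other receptors and ligands lie below them. The 10 genes lie below by the gene TSS, with 2 of 10 marked in each list. With every annotated start counted, 6 of 10 were marked in each, beside 31.3% and 35.3% of all genes.

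At the edge of the 20 kb rule the outermost peaks taken were 17545 bp upstream of Fgfr3, at the 25.8th percentile in proliferating cells, and 15534 bp past Pdgfra in differentiating cells. The nearest peaks left out lay upstream of Cspg4, 20850 bp away in proliferating cells at the 57.6th percentile and 20815 bp away in differentiating cells at the 10.7th percentile.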

How the data were processed

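H3K27ac ChIP-seq peaks of Oli-neu cells were analysed, 1 library per state. The authors aligned reads to GRCm38/mm10 with Bowtie2 2.1.0, kept uniquely mapped reads, removed PCR duplicates with SAMtools, called broad peaks per library with MACS2 2.0.10 at a q limit of 0.05 and removed blacklisted regions with bedtools (versions per the submitters' processing notes and the study's methods). No input library is named. The deposited lists give each peak's position and, in 1 text field, 3 numbers without a header. Following the usual output order of MACS2, these were taken as the authors' fold enrichment, which is a ratio, then the −log10 of p, then the −log10 of q. No scaling between the libraries is stated, and values were ranked only within a list. Deposited peaks with a −log10 q under 1.30 numbered 1129 and 3215. Read counts are not part of the lists, the depth of each peak is unknown, and intervals cover counting error only. The study reports more uniquely mapped reads for the differentiating library than for the proliferating one.

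Genes were taken from GENCODE M21 on the same build. A member's window is its gene record with 20 kb on each side, and promoters are the 3000 bp before and 100 bp after the TSS, as in the study. Transcript Fgfr2-217 was left out of the description after its effect on the record was seen. Intervals are exact at 95%. Sequences came from GRCm38.p6 and the RefSeq promoter table (7 of the 10 genes matched), and letters were searched on both strands in 300 bp. Python 3.11.15 with numpy 2.4.6, pandas 2.3.3, scipy 1.17.1 and matplotlib 3.10.9 was used, and the counting was tested on simulated data.

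The members, the pathway and marker lists and the settings were chosen with earlier results of these data known. Of the pathway list, genes with a promoter peak in both lists were named, at most 4 per role in the order of their mean percentile, and neighbouring genes where a member peak lay nearest to their start. Genes given by name from the marker lists, and Sort1 and Pdgfb, were named after their values were seen. For 1 of the marker genes the value is not reported here. Alternatives covered the promoter region, the window, the overlap, the value ranked and the q limit. Without replicates no test between states was run.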

Additional observations from a re-analysis of the deposited data

How the results depend on the processing

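Of 80 alternative values, 54 stayed within the limits set and 26 moved. The annotated Fgfr2 record is used in all values here unless stated, which gives 3 member genes with a promoter peak in each list and in either. A promoter of 6000 bp upstream gave 5 genes in proliferating cells and 5 in either list. With 1000 bp on both sides of the TSS there were 6 in differentiating cells and 6 in either, and with the start of every transcript 7 in proliferating cells, 7 in differentiating cells and 7 in either. At a −log10 q of at least 5 there were 1 in proliferating cells, 0 in differentiating cells and 1 in either. That limit left 3 member peaks in each list, or 0.666 per Mb, of which 0% were shared, and 2 and 4 of the other pathway genes with a promoter peak. Shares of all protein-coding genes were counted for the main promoter region, 23.7% and 27.7% with 33.8% in either list. For every start they were 31.3% and 35.3%, with 42.1% in either. The other counts of genes have no such share beside them. Leaving out the long Fgfr2 transcript, a choice made after seeing the data, took the peaks from 56 and 60 to 26 in each list.

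The share of shared peaks, 42.9% and 41.7%, was 17.9% and 16.7% under reciprocal overlap of at least 0.5 and 25.0% and 25.0% when at least 0.5 of the counted peak had to overlap. The median percentile, 54.8 and 58.2 by −log10 q, was 39.4 and 43.4 by width. Without the long Fgfr2 transcript it was 51.1 and 56.6 by −log10 q and 55.4 and 63.9 by width, so the lower ranks by width rest on that stretch. The causes were not tested. No paired analysis was possible because each state has 1 library and no test was run. With 1 library per state, peak callers' thresholds, depth and state cannot be told apart, and the absence of a peak from a list shows only that it was not called there.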

Other observations

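The stretch that transcript Fgfr2-217 adds to the record of Fgfr2 holds 30 other protein-coding genes. Its 30 peaks in proliferating and 34 in differentiating cells included 12 shared ones in each list. Of these peaks, 8 and 10 lay over a start of another gene, with Ate1, Bub3, Ctbp2, Nsmce4a and Oat in both lists. The genes were named after their values were seen. A count of peaks per gene record assigned these promoters of other genes to Fgfr2, which without that transcript had no peak in its window.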
